A study of Rattus norvegicus with 8 samples.

Results

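The genes described here are 37 macrophage and phagocyte genes, taken by symbol from a fixed list and found on the array through the RefSeq accession of each probe. All 37 had at least 1 probe, and 32 passed the filter on dim probes, out of 21416 genes or unnamed transcripts tested in all. They were set apart into 24 pan-macrophage and leukocyte genes, 7 genes of resident macrophages and scavenger receptors, and 6 genes of lipid-laden and injury-associated macrophages. Total RNA of kidney from male SD rats, aged 10 weeks, was hybridised to single-colour Agilent arrays. In 4 samples the rats had been given APL at 150 mg/kg, and in 4 Control samples 0.5% methylcellulose, a vehicle, each over 4 weeks. APL is read as allopurinol, a xanthine oxidase inhibitor, which the series title names as the agent of its renal fibrosis model. The title speaks of tubules where the tissue label says kidney. The labels do not state that replicates are separate animals, so p-values measure the spread between these samples only.

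Macrophages arise from monocytes or from cells seeded before birth, depend on signals through the receptor Csf1r, and take their identity from the transcription factor PU.1, encoded by Spi1. They take up debris through scavenger and Fc receptors. Several Fc receptors signal through the small adaptor Fcer1g, and other receptors, such as Trem2, through the adaptor Tyrobp. In injured kidney, recruited macrophages join resident ones, and a lipid-handling state marked by Trem2 and Gpnmb is known from several injured tissues. Some of the genes are not private to macrophages. Lgals3, Gpnmb, Apoe and Cd14 can also be made by kidney epithelial cells. In whole tissue, a change in the number of cells of a type and a change in RNA per cell cannot be told apart.

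The promoters of 26 of the 37 genes are in the RefSeq table (GRCr8). The 4 below are shown because their genes rose and because each holds the purine-rich PU.1 motif GAGGAAG. Each spans 300 bases around the start of the gene, most of them upstream, and capitals mark matches on either strand to GAGGAAG, to the AP-1 motif TGANTCA or to the TFE and MITF box TCANGTGA, where N is any base. In the Trem2 promoter the PU.1 motif lies on the other strand and reads CTTCCTC.
Gpnmb (chr4:79340878-79341177, plus strand): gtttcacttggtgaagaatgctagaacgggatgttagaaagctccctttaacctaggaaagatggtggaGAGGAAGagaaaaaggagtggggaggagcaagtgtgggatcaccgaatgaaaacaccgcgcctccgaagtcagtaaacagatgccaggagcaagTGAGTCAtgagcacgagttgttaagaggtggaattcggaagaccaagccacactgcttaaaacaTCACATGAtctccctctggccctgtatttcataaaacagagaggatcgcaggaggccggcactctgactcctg
Trem2 (chr9:20151730-20152029, minus strand): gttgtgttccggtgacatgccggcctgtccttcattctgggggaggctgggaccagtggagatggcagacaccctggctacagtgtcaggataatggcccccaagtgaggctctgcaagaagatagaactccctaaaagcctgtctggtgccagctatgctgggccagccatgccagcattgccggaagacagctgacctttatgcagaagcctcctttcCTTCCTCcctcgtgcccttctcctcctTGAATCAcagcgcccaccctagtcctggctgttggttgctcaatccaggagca
Cd68 (chr10:54882392-54882691, minus strand): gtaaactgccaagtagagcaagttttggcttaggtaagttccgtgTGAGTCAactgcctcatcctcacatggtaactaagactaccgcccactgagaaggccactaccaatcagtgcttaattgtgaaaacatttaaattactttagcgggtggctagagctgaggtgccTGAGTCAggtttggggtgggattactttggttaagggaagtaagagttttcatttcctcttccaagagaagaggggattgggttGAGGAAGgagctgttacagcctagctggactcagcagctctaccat
Cd14 (chr18:28611109-28611408, minus strand): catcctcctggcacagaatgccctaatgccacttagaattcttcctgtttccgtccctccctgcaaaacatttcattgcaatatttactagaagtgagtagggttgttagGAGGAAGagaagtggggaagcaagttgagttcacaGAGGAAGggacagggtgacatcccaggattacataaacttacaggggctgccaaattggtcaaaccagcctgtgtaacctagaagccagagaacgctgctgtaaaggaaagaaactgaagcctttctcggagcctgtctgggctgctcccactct
Of the 26 genes, 12 had GAGGAAG in this window, among them 4 of the 6 called genes with a promoter there, where 12.4% of all 33469 promoters hold it. The AP-1 motif was found in 4 of the 26 (Cd68, Cybb, Trem2 and Gpnmb), against 7.33% of all promoters. The TFE and MITF box was found in Ctss and Gpnmb, against 3.93% of all promoters. Genes that were not called, such as Csf1r, Adgre1, Laptm5 and Marco, also held GAGGAAG. A match is a run of letters and not a shown binding site.

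Levels are given as log2 of the processed signal over the array's 75th percentile, so 0 is that percentile and -7.64 is the floor. The 75th percentile itself was 455 ± 53 on APL arrays and 291 ± 18 on Control arrays (SD, n = 4 each, exact two-sided permutation p = 0.0286, the lowest value that 70 splits can give). The share of probes well above background was 80.7% ± 0.845 on APL arrays and 75% ± 1.53 on Control arrays (SD, n = 4 each). Control replicate 3 stood apart from the other Control arrays on the second principal component, at -126 against 30.4 to 73.5. Markers of kidney epithelium and podocytes, among them Umod, Lrp2, Aqp2 and Nphs1, were well above background on all 8 arrays.

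Of the 32 tested genes, 11 were higher and 0 were lower in APL samples at an adjusted p under 0.05 by limma (15 higher and 0 lower at an unadjusted p under 0.05). That is 34.4% of them, where 11.9% of all genes tested were higher and 11.5% lower. The median log2 fold change was 1.16, beside -0.03 over all genes. Among the 22 tested pan-macrophage genes 6 rose, and among the 6 lipid and injury genes 4 rose, with median log2 fold changes of 1.02 and 3.45. The difference between these medians was not tested. Of the 4 tested resident genes only Siglec1 was called. Siglec1 and Msr1, both in the resident class, had at most 1 Control array well above background and passed the filter through the APL arrays, so that class is given gene by gene. Where detection on all 8 arrays was required, 9 of 23 tested genes were called higher. Over all genes under that filter, 1988 were called higher and 2417 lower, and 45.1% of these calls pointed upward. The number of all genes tested under that filter is not given, so no share of all genes stands beside the 9 of 23. All 4 APL values lay above all 4 Control values for 13 of the 32 genes, beside 14% of all genes tested, and for 0 of the 32 they lay below, beside 15.9%. Without Control replicate 3 the count stayed at 11 of 32. Without any scaling between arrays it was 18, where 5883 of all 21416 genes tested were called higher and the median over all genes was 0.61. Of all calls, 83.7% then pointed upward, against 50.8% with scaling.

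**Figure D1:**
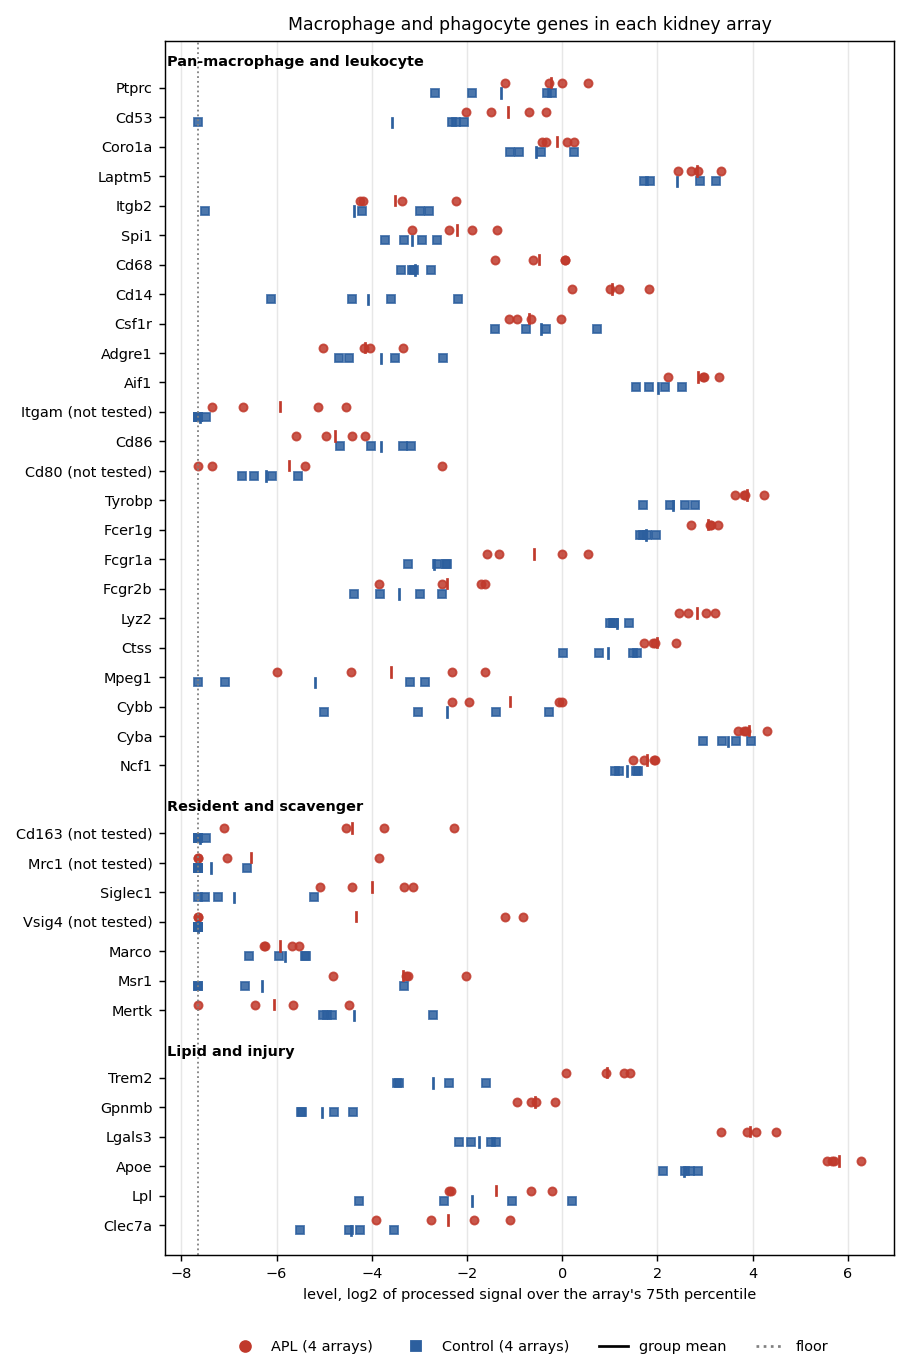
Level of each of the 37 genes on each array, as log2 of the processed signal over the array's 75th percentile, with APL arrays as red circles above Control arrays as blue squares, group means as short bars and the floor as a dotted line. The lipid and injury genes Lgals3, Apoe, Gpnmb and Trem2 separate fully, with gaps of 4.72, 2.72, 3.46 and 1.68 between the groups, while Csf1r and Adgre1 overlap.

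In the lipid and injury class, Lgals3, Gpnmb, Apoe and Trem2 rose, and Lgals3 had the largest log2 fold change of the 32 tested genes. Lgals3 encodes galectin-3, a sugar-binding lectin. It stood at 4.06, 3.34, 4.48 and 3.88 on APL arrays 1 to 4, against -1.38, -2.17, -1.50 and -1.91 on Control arrays 1 to 4. No APL array came within 4.72 log2 units of the highest Control array, and the rise of 5.68 ± 0.30 (moderated SE, n = 4 each, limma adjusted p = 2.51e-05) was 51.3-fold.

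Gpnmb, a lysosomal glycoprotein of phagocytes under lipid load, was at -0.94, -0.55, -0.14 and -0.66 in APL samples and at -5.49, -5.46, -4.80 and -4.40 in Control samples. The groups lay far apart with little spread inside each. Gpnmb rose by 4.46 ± 0.31 (limma adjusted p = 6.94e-05), or by 2.04 and 1.67 after normexp background correction with the 75th percentile or with quantile normalization.

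Apoe, the apolipoprotein that carries lipid between cells, reached 5.56, 5.71, 6.28 and 5.67 in APL samples, against 2.85, 2.68, 2.59 and 2.12 in Control samples. It was well above background everywhere and rose by 3.25 ± 0.25 (limma adjusted p = 0.000111). Trem2, a receptor for lipids and apolipoproteins that signals through Tyrobp, stood at 0.08, 0.92, 1.43 and 1.30 in APL samples and at -1.60, -2.39, -3.47 and -3.43 in Control samples. All 4 APL values exceeded all Control values. The rise of Trem2 was 3.66 ± 0.49 (limma adjusted p = 0.00161), with 2.50 on slide 1 and 4.82 on slide 2, and 2.35 and 2.05 under the normexp settings.

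The other genes of this class did not pass. Clec7a, the beta-glucan receptor dectin-1, was at -1.10, -2.76, -3.92 and -1.86 in APL samples and at -4.25, -5.51, -4.49 and -3.53 in Control samples. APL replicate 3 lay among the Control values, and the log2 fold change was 2.03 ± 0.65 (limma adjusted p = 0.0572, and 0.0235 without that array). Lpl, lipoprotein lipase, differed by 0.50 ± 0.97 (limma adjusted p = 0.738), with wide scatter in Control samples, from -4.27 to 0.20.

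Among the pan-macrophage genes, surface and lysosomal markers behaved unevenly. Cd68, a glycoprotein of phagocyte lysosomes, was at -1.41, -0.61, 0.05 and 0.05 in APL samples and at -2.76, -3.16, -3.38 and -3.10 in Control samples. The groups did not overlap, and Cd68 rose by 2.62 ± 0.36 (limma adjusted p = 0.00165), with 1.95 on slide 1 and 3.30 on slide 2 and 1.34 with normexp and quantile normalization. Cd14, the co-receptor for bacterial lipopolysaccharide, was at 0.21, 1.19, 1.81 and 1.001 in APL samples and at -2.18, -3.59, -6.11 and -4.41 in Control samples. Its Control values spread widely and replicate 3 was not well above background. Cd14 rose by 5.13 ± 0.78 (limma adjusted p = 0.00281), with 3.59 and 6.67 on the slides and 2.78 and 2.53 under the normexp settings.

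Csf1r, the receptor for the main macrophage growth factor, did not pass. It was at -0.03, -1.13, -0.94 and -0.65 in APL samples and at -0.77, -0.34, 0.72 and -1.41 in Control samples. No APL array exceeded the highest Control array. The log2 fold change was -0.24 with a 95% interval of -1.32 to 0.84 (limma adjusted p = 0.738), and it was 0.25 on the second probe and 0.40 without scaling. Adgre1, which encodes the F4/80 antigen of rodent macrophages, was at -3.34, -4.03, -5.04 and -4.17 in APL samples and at -3.51, -4.70, -4.49 and -2.51 in Control samples. Its log2 fold change was -0.34 with a 95% interval of -1.61 to 0.93 (limma adjusted p = 0.684), and 0.295 without scaling.

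Of the remaining surface genes, Aif1, the calcium-binding protein Iba1, had a log2 fold change of 0.85 ± 0.31 (limma adjusted p = 0.0851). It passed without APL replicate 2 (adjusted p = 0.0490) and in 3 of 13 other settings. These were quantile normalization (0.0484), normexp with quantile normalization (0.0301) and no scaling (0.0154). The second Aif1 probe differed by 0.72 ± 0.33 (limma adjusted p = 0.158 over all kept probes). Cd86, a costimulatory ligand for T cells, differed by -0.97 ± 0.43 (limma adjusted p = 0.145). Its partner Cd80 and the integrin chain Itgam were too dim to be tested. Itgam was well above background on 2 APL arrays and 0 Control arrays, and Cd80 on 2 and 1.

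None of the 6 leukocyte-wide genes passed, and 0 of them had an unadjusted p under 0.05 on the brightest probe. Ptprc, the phosphatase CD45 of all leukocytes, was at 0.55, -1.20, -0.29 and -0.002 in APL samples and at -0.33, -1.89, -2.67 and -0.22 in Control samples. The groups overlapped, and the log2 fold change was 1.04 with a 95% interval of -0.40 to 2.49 (limma adjusted p = 0.264), or 1.79 on its dimmer second probe. That probe was under 0.05 before adjustment over all kept probes and not after it. Spi1 differed by 0.95 ± 0.42 (limma adjusted p = 0.139), and passed without scaling at 1.59 (adjusted p = 0.0353). Cd53, Itgb2, Coro1a and Laptm5, a tetraspanin, an integrin chain, an actin regulator and a lysosomal protein of blood cells, had log2 fold changes of 2.43, 0.87, 0.44 and 0.41. The value of Cd53 had an SE of 1.23, with Control replicate 2 at the floor and the other Control arrays between -2.32 and -2.06, and it was 1.07 without that array.

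The signalling adaptors Tyrobp and Fcer1g rose with little scatter. Tyrobp, the adaptor DAP12, was at 3.82, 3.64, 3.85 and 4.24 in APL samples and at 2.25, 2.80, 1.69 and 2.58 in Control samples. The lowest APL value exceeded the highest Control value, and Tyrobp rose by 1.56 ± 0.28 (limma adjusted p = 0.00650, and 0.0633 under normexp with percentile scaling). Fcer1g, the common Fc receptor gamma chain, was at 3.28, 2.70, 3.11 and 3.12 in APL samples and at 1.97, 1.69, 1.64 and 1.78 in Control samples. It rose by 1.28 ± 0.20 (limma adjusted p = 0.00320, and 0.0847 under normexp with percentile scaling), and its second probe rose by 1.51.

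The Fc receptors themselves gave probe-dependent results. Fcgr1a, the high-affinity receptor for IgG, was at 0.54, -1.33, -1.58 and -0.01 in APL samples and at -2.45, -2.43, -3.25 and -2.63 in Control samples. On this probe Fcgr1a rose by 2.09 ± 0.50 (limma adjusted p = 0.0203), but without APL replicate 4 the value was 1.90 with an adjusted p of 0.0590, and over the mean of its probes it was 0.84 (0.0509). A second Fcgr1a probe overlapped between groups and differed by -0.42 ± 0.58 (limma adjusted p = 0.637 over all kept probes). Fcgr2b, the inhibitory IgG receptor, showed the opposite arrangement. Its brighter probe differed by 1.01 ± 0.59 (limma adjusted p = 0.256). Its dimmer probe was at -2.64, -3.59, -2.61 and -2.31 in APL samples and was not well above background in any Control sample, at -7.64 to -7.57. That probe was at least 9.06-fold higher (limma adjusted p = 4.09e-05 over all kept probes). The bound sets the APL mean against the lowest signal well above background on each Control array. Being well above background on 4 APL arrays and 0 Control arrays, the probe passed the filter through the APL arrays alone. Its p-value rests on a Control spread that the floor keeps small. Which transcripts the probes of a pair detect was not tested, and Fc receptor genes have close paralogs.

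Of the lysosomal and killing genes, Lyz2, lysozyme, was at 3.21, 2.46, 3.01 and 2.65 in APL samples and at 1.41, 1.01, 1.08 and 1.06 in Control samples. The groups were separated by 1.04, and Lyz2 rose by 1.69 ± 0.23 (limma adjusted p = 0.00164). The RefSeq table gives Lyz2 as a synonym of a second gene, Lyc2, and signal shared between them was not tested. Ctss, the protease cathepsin S of antigen-presenting cells, was at 1.91, 1.72, 2.40 and 1.94 in APL samples and at 1.49, 0.77, 0.01 and 1.57 in Control samples. These values did not overlap, yet the log2 fold change of 1.03 ± 0.37 missed the threshold (limma adjusted p = 0.0827). Mpeg1, a pore-forming protein, differed by 1.61 ± 1.40 (limma adjusted p = 0.436), with -0.34 on slide 1 and 3.56 on slide 2, and 0.79 without Control replicate 3.

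The 3 subunits of the phagocyte NADPH oxidase did not pass, with 0 at an unadjusted p under 0.05. Cybb, the catalytic subunit, ranged from -2.32 to -0.01 in APL samples and from -5.00 to -0.27 in Control samples. Its membrane partner Cyba and the cytosolic organiser Ncf1 had log2 fold changes of 0.44 and 0.41, with 95% intervals of -0.18 to 1.05 and -0.08 to 0.90. Without scaling both passed, at 1.07 (adjusted p = 0.0225) and 1.05 (0.0129).

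**Figure D2:**
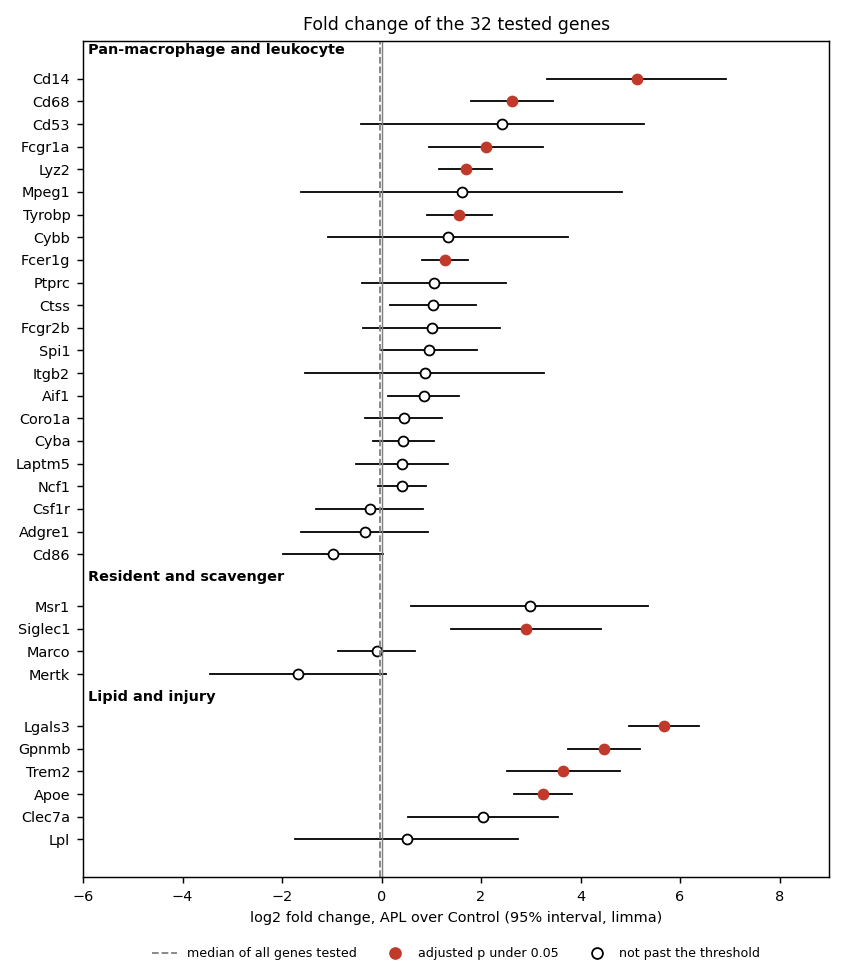
Log2 fold change of the 32 tested genes, APL over Control, with 95% intervals from limma, ordered within the 3 classes. Filled red points passed an adjusted p of 0.05 (11 genes), open points did not, and the dashed line is the median over all genes tested, -0.03.

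The resident and scavenger genes were dim, and 3 of the 7 could not be tested. Siglec1, the sialic-acid receptor CD169, was at -3.32, -5.10, -3.14 and -4.42 in APL samples and at -7.64, -7.23, -5.22 and -7.51 in Control samples. It was well above background on all 4 APL arrays and 0 Control arrays, and so passed the filter through the APL arrays alone. Siglec1 was at least 3.47-fold higher (limma adjusted p = 0.0163). Neither normexp setting kept that call (adjusted p = 0.359 under percentile scaling and 0.114 under quantile normalization), where the log2 fold changes were 0.89 and 0.29.

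Msr1, the class A scavenger receptor, was at -3.28, -2.02, -4.83 and -3.24 in APL samples and at -6.66, -3.32, -7.64 and -7.64 in Control samples. It was well above background on 4 APL arrays and 1 Control array. The log2 fold change was 2.97 ± 1.03 (limma adjusted p = 0.0728). With 1 array left out, the limma adjusted p ran from 0.00690 to 0.161 and was under 0.05 in 1 of 8 fits. That fit left out Control replicate 2, the highest Control array, and gave 3.98 against Control values at or near the floor. Mertk, a receptor for dying cells, was at -6.45, -5.65, -7.64 and -4.48 in APL samples and at -5.03, -4.94, -2.71 and -4.83 in Control samples. Its log2 fold change was -1.68 with a 95% interval of -3.45 to 0.09 (limma adjusted p = 0.153). Marco, a scavenger receptor of some tissue macrophages, differed by -0.10 ± 0.34 (limma adjusted p = 0.851), or by 0.54 without scaling.

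The haptoglobin-haemoglobin receptor Cd163 was well above background on 3 APL arrays and 0 Control arrays. Its levels were -4.55, -3.73, -2.28 and -7.10 in APL samples and -7.64 to -7.49 in Control samples. The mean gives a fold of at least 2.93, with no test. Vsig4, a complement receptor of resident macrophages, was at -1.21 and -0.83 on APL arrays 1 and 2 and at the floor on APL arrays 3 and 4 and every Control array. Those 2 arrays share a slide. Mrc1, the mannose receptor CD206, was at -3.84, -7.64, -7.05 and -7.64 in APL samples and at -7.64, -6.62, -7.64 and -7.64 in Control samples. It was well above background on APL replicate 1 and on no other array.

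The APL samples did not order the genes alike. APL replicate 3 was the highest APL array for 12 of the 32 tested genes, among them Lgals3, Gpnmb, Trem2, Apoe, Cd68 and Cd14. APL replicate 1 was the highest for 11, among them Ptprc, Cybb, Csf1r, Adgre1, Fcgr1a and Clec7a, and APL replicate 4 for 8. APL replicate 2 was the highest for 1, Msr1, and the lowest for 14. Of the 22 pan-macrophage genes, 9 peaked in APL replicate 1 and 7 in replicate 3, and of the 6 lipid and injury genes 4 peaked in replicate 3 and 1 in replicate 1. On the Control side, replicate 3 was the lowest array for 13 of the 32 genes.

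The neighbouring lists hold other genes of related pathways, and their counts stand beside 11.9% higher and 11.5% lower over all genes tested. Of 14 tested genes of recruitment and growth, 4 were higher and 2 lower. Csf1, the ligand of Csf1r, rose by 2.25 ± 0.61 (limma adjusted p = 0.0334), with -2.74, -0.19, 0.13 and -0.52 in APL samples and -3.72 to -2.66 in Control samples, so that APL replicate 1 lay within the Control range. The monocyte chemokines Ccl2 and Ccl7 rose by 4.97 ± 0.56 and 3.98 ± 0.40, and Ccl12 was at least 5.60-fold higher. Both Ccl7, with 1 Control array well above background, and Ccl12, with 0, passed the filter through the APL arrays, and the size of the Ccl7 difference rests on Control values mostly not above background. The receptor of Ccl2, Ccr2, named after its values were seen, was at -0.22, -6.06, -4.30 and -0.30 in APL samples and at -4.93 to -4.23 in Control samples (limma adjusted p = 0.339). The 2 lower genes, named after their values were seen, were the cytokine Mif, which fell by 1.56, and the fractalkine receptor Cx3cr1, which fell by 0.60. Cx3cr1 was bright, at 5.21 to 5.66 in APL samples and 5.92 to 6.10 in Control samples, above every level of Csf1r. Which cells or transcripts its probe reports was not tested.

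Of the 8 tested kinases and partners downstream of Tyrobp and Fcer1g, 1 was called, the phospholipase Plcg2 (limma adjusted p = 0.0474), a share of 12.5%. Plcg2 was well above background on 4 APL arrays and 1 Control array, and the other 3 Control values lay at the floor, which sets the size of its log2 fold change of 2.26 ± 0.69. Of the 3 tested genes on the oxidase partner list 0 passed, with 0 higher and 1 lower at an unadjusted p under 0.05. The lower gene was Nox4, a separate oxidase and not a partner of Cybb, at -1.44 (limma adjusted p = 0.0502). The other genes, Ncf4 and Rac2, had log2 fold changes of 1.02 and 2.205. All were named after their values were seen. Of the 10 lysosome and phagosome genes, 3 were higher and 2 lower. The proteases Ctsz and Ctsd rose by 2.32 ± 0.32 and 2.08 ± 0.23 and Grn, the lysosomal protein progranulin, by 1.29 ± 0.38, while Ctsl fell by 0.70 and the membrane protein Lamp1, named after its value was seen, fell by 0.66.

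Of the 10 genes of lipid handling, 4 were higher and 2 lower. Spp1, osteopontin, rose by 10.05 ± 1.01, the tetraspanin Cd9 by 5.31 ± 0.83 and the cholesterol exporter Abcg1 by 3.65 ± 0.49. Spp1 was at the floor on Control replicate 3, and Cd9 was well above background on only 2 Control arrays. The sizes of both changes rest in part on such values. Mmp12, an elastin-cleaving protease of macrophages, was higher by at least 15.7-fold. It was well above background on 4 APL arrays and 0 Control arrays, and so passed the filter through the APL arrays alone. The 2 lower genes, named after their values were seen, were the fatty acid carrier Fabp5, which fell by 2.72, and the scavenger receptor Cd36, which fell by 1.93. Of 7 tested genes of resident or alternatively activated macrophages, the complement chains C1qc and C1qb rose by 2.52 ± 0.59 and 2.35 ± 0.38, and 5 were not called. Of 2 tested inflammatory genes, Il1b rose by 2.28 ± 0.37. Nos2 and Tnf, named after their values were seen, were each well above background on 3 APL arrays and 0 Control arrays and were not tested, and Il6 and Ptgs2 were on no array.

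**Figure D3:**
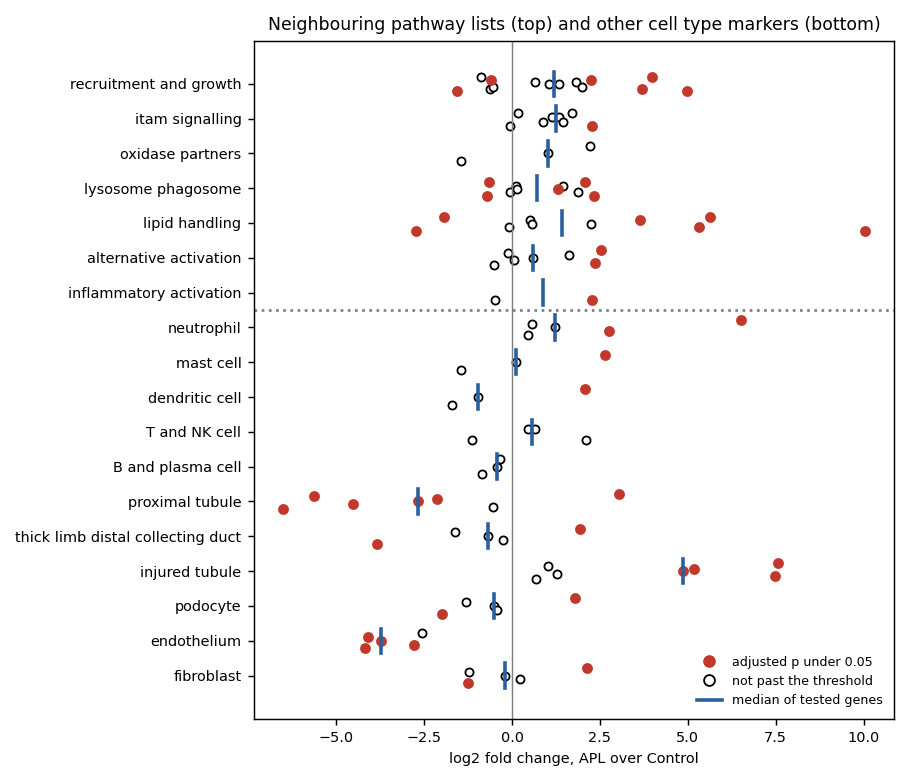
Log2 fold change, APL over Control, of each tested gene of the 7 neighbouring pathway lists (above the dotted line) and of 11 lists of other cell types (below it), with red points past an adjusted p of 0.05 and blue bars at list medians. Injured tubule genes have a median of 4.86, proximal tubule genes of -2.68 and endothelial genes of -3.73.

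Markers of other cell types moved in the same samples. Of 9 neutrophil genes with a probe, 5 were tested and 2 rose, S100a8 (at least 33.9-fold) and S100a9 (2.77 ± 0.34). Of the Control arrays, 0 had S100a8 well above background and 1 had S100a9, so both passed the filter through the APL arrays. The summed level of that list, in units of the 75th percentile, was 0.654 to 1.58 in APL samples and 0.106 to 0.161 in Control samples. S100a8, at -2.01 to -0.23 in APL samples, was the largest part of the sum on each APL array. The sums therefore do not speak for the list as a whole. Camp, Csf3r and Cxcr2 were not called, with log2 fold changes of 0.46, 0.55 and 1.22. Elane was well above background on 0 APL arrays and Mmp8 on no array. Of 9 T and NK cell genes, 4 were tested and 0 passed (1 higher at an unadjusted p under 0.05), with sums of 0.513 to 1.09 in APL samples and 0.588 to 1.09 in Control samples. For B and plasma cells, 0 of 3 tested genes passed, with 0 at an unadjusted p under 0.05. For dendritic cells, 1 of 3 tested genes was called, Batf3 (at least 1.63-fold higher, well above background on 4 APL arrays and 0 Control arrays). The other 2, Clec9a and Zbtb46, had log2 fold changes of -1.72 and -0.98 and were lower at an unadjusted p under 0.05 only. The sums were 0.115 to 0.165 in APL samples and 0.159 to 0.354 in Control samples. For mast cells 1 of 3 rose, Kit, a growth factor receptor, and Ms4a2 and Cpa3 were well above background on no array.

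Of 7 tested markers of injured tubule, 4 rose, among them Lcn2 by 7.58 ± 0.32 and Havcr1 by 5.17 ± 0.38, and the summed level was 58 to 126 in APL samples and 1.16 to 3.10 in Control samples. The 4 called lipid and injury genes moved in the same direction, with a summed level of that class of 65.3 to 104 in APL samples and 4.89 to 8.47 in Control samples. The part of tubule cells in the rise of Lgals3, Gpnmb, Apoe and Cd14, and in the changes of the neighbouring lists, was not tested. Of 7 proximal tubule genes 5 fell and 1 rose, with sums of 39 to 47.3 in APL samples and 384 to 454 in Control samples. Of 5 endothelial genes 4 fell and 0 rose. Among the 4, Emcn and Tek were each well above background on 1 APL array and 4 Control arrays. Both passed the filter through the Control arrays, and the sizes of their falls rest on APL values mostly at or near the floor. Among thick limb and distal markers, podocyte markers and fibroblast markers, 5 of each tested, 1 rose and 1 fell in each list. Every level is scaled within its array, and the part of these shifts and of array brightness in the values above was not tested.

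**Figure D4:**
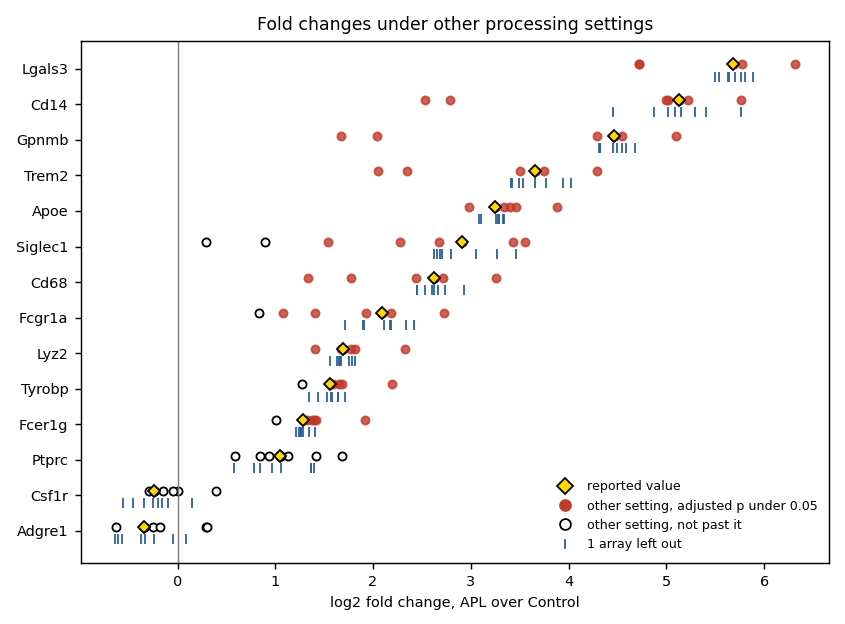
Log2 fold change, APL over Control, of the 11 called genes and of Ptprc, Csf1r and Adgre1 under other settings (circles, filled where the adjusted p was under 0.05) and with 1 array left out (blue ticks), with the reported value as a diamond. Lgals3 ranged from 4.72 to 6.32 and Apoe from 2.98 to 3.88, while Siglec1 ranged from 0.29 to 3.56.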

How the data were processed

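Per the file headers, the arrays (design 028282) were quantified in Agilent Feature Extraction 10.5.1.1. The deposited files hold linear intensity per spot, namely a processed signal with background and spatial trends removed, and the spot and background medians, as well as flags. A deposited table of the authors gives log2 values. Its values matched the processed signals after scaling to the 75th percentile and centring each probe on its median (correlations of 0.9993 to 0.9999 per array). Its column medians run from -0.135 to 0.0759, and why small differences remain is unknown.

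Non-uniform spots, 2 to 64 per array, were dropped and spots of a probe averaged. Signals were scaled to the 75th percentile of their array, floored at 0.005 of it, and put on the log2 scale. A probe was kept if 4 or more of the 8 arrays had it well above background (24339 of 30367). Symbols came from RefSeq (GRCr8) by accession, for 18643 probes. The brightest kept probe stood for a gene. The comparison used limma 3.58.1 (R 4.3.3) over 21416 genes or unnamed transcripts, with Benjamini-Hochberg adjustment and a threshold of 0.05, after a run on simulated data. No probe was saturated.

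The genes, lists and tests were chosen with earlier results of these data known. Named were the called members and the defining markers of each role, and of each neighbouring list the called genes, at most 4 by size of change. The alternatives varied background correction, scaling, floor, detection filter, probe rule, slide and replicate blocks and single arrays. Same-numbered arrays deviated from their group means with correlations of -0.0157 to 0.0482, so the numbers were not treated as pairs.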

Additional observations from a re-analysis of the deposited data

Results flagged for a closer look

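In 8 of the 74 sets of 4 values, a single array lay far from the others, by Dixon's ratio of its gap to the whole range (against the 95% critical value), and chance alone gives such a gap in about 1 set in 20. Cd53 on Control replicate 2 was at -7.64, with the nearest array at -2.32. Mertk on Control replicate 3 was at -2.71 and its nearest neighbour at -4.83. Mrc1 on APL replicate 1 was at -3.84, against -7.05 on the nearest array. Siglec1 on Control replicate 3 was at -5.22, against -7.23. Lyz2 on Control replicate 1 was at 1.41, against 1.08, a gap of less than the difference between the groups. The other 3 lay among values at the floor and below background, namely Itgam on Control replicate 1 at -7.48, Cd163 on Control replicate 1 at -7.49 and Mrc1 on Control replicate 2 at -6.62.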

How the results depend on the processing

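Most combinations of gene and setting tried (673 of them) kept the reported result, and no member was called lower under any. For a refit, this meant the same direction and side of the threshold. Within slides, it meant a value closer to the reported one than the pooled SD, whatever its sign for an uncalled gene. All genes called numbered 5026, against 2061 under normexp with percentile scaling and 3258 with the replicate block, and 3383 to 4189 with 1 array left out. Members called higher numbered 11, and 18 without scaling, 12 with the replicate block and 10 to 12 with 1 array left out. Pan-macrophage calls numbered 6, and 11 without scaling and 5 to 7 with 1 array left out. The 1 resident call became 0 under detection on all 8 arrays and under both normexp settings, and 2 without scaling, with the slide or replicate block, or without Control replicate 2 (range 1 to 2 with 1 array left out). Lipid and injury calls numbered 4 to 5 with 1 array left out. The neighbouring lists held 21 calls, 12 under normexp with percentile scaling and 15 to 18 with 1 array left out. The members' median log2 fold change was 1.16, against 1.80 without scaling (all genes 0.61), 0.51 with normexp and quantile normalization, and 0.83 to 1.38 with 1 array left out; within slides it was 0.85 and 1.54. The brightness ratio of 1.56 ran from 1.51 to 1.65, with p = 0.0571 by the exact permutation test with any 1 Control array left out.

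Only uncalled genes changed sign under these settings. Without scaling the log2 fold changes were 0.40 for Csf1r, 0.295 for Adgre1 and 0.54 for Marco. Under normexp with percentile scaling they were 0.30 for Adgre1, 0.32 for Cd86, 0.55 for Marco and 0.35 for Mertk. The median over all genes was 0.36 under that setting, and 0.61 without scaling. Over all kept probes Csf1r was at 0.003. With 1 array left out, Itgb2 ranged between -0.18 and 1.39, Csf1r between -0.56 and 0.15, Adgre1 between -0.64 and 0.089, Lpl between -0.29 and 1.20, and Marco between -0.35 and 0.052. Within slide 1 the values were -0.88 for Itgb2, -0.34 for Mpeg1, -0.03 for Cyba, -1.06 for Lpl, 0.42 for Adgre1 and 0.07 for Marco, and within slide 2 -0.03 for Coro1a. The cause was not tested. The replicate numbers share no stated litter or day. Signal over background limits Itgam, Cd80, Cd163, Mrc1, Vsig4, Siglec1 and Mertk, and 4 arrays per group limit the precision.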
